A study of Mus musculus with 5 samples.

Results

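A set of 10 genes of leukocyte recruitment and myeloid growth was followed in mouse back skin keratinocytes: the chemokine genes Ccl2, Ccl20, Ccl27a, Cxcl1, Cxcl12, Cxcl14, Cxcl16 and Cx3cl1, and the growth factor genes Il34 and Csf1. They were picked by symbol, with earlier results of these data known, and are 10 of 56691 genes in the count table. All 10 passed the filter on low counts, as did 18583 genes in all. RNA was sequenced from back skin cells of mice aged 28 days. The 3 GFP libraries hold cells sorted for GFP, which the labels call Lrig1 positive keratinocytes with an Lrig1 positive genotype. The 2 bulk libraries hold the whole population, which the labels call wild-type basal keratinocytes. GFP 1 and bulk 1 share the title number 4143, GFP 2 and bulk 2 share 4145, and GFP 3 alone carries 4146. A shared number is read here as a shared animal, but the labels do not say so, and they give a WT genotype for the bulk libraries and an Lrig1 positive one for GFP libraries of the same number. Values within title numbers and from fits that use them rest on that reading. The sources used here do not give the construct that drives GFP, the sort gates or any pooling of animals.

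Chemokines are small secreted or membrane-anchored proteins that bind receptors on leukocytes and guide them into tissue. Their names follow the spacing of the first cysteines (the CC, CXC and CX3C families). Skin keratinocytes make several of them at rest, among them Ccl27a and Cxcl14, and can induce others such as Ccl20 and Cxcl1 upon injury or microbial contact. Il34 and Csf1 are the ligands of the receptor Csf1r, on which macrophages and Langerhans cells, the antigen-presenting cells of the epidermis, depend. Il34 made by keratinocytes is known to sustain Langerhans cells in mice.

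Total counts ran from 71410484 to 89080100 in GFP libraries and were 56829330 and 105887450 in bulk libraries. Lists of cell type markers were summed in CPM (counts scaled to a common library size, TMM-adjusted). The 6 basal markers summed to 28237 to 35156 CPM in GFP and to 17806 and 20371 CPM in bulk. The 7 suprabasal markers, present in both groups despite the basal label, summed to 8519 to 12021 CPM in GFP and to 16636 and 21331 CPM in bulk. The 12 Langerhans and myeloid markers summed to 23.4 to 59.7 CPM in GFP and to 368 and 371 CPM in bulk. For the 8 T cell markers the sums were 9.82 to 16.5 CPM in GFP and 109 and 125 CPM in bulk. The 8 hair matrix and inner root sheath markers, all called lower, summed to 26.5 to 41.4 CPM in GFP and to 1233 and 2267 CPM in bulk. All 5 melanocyte markers were called lower, with sums of 4.4 to 9.34 CPM in GFP and 103 and 271 CPM in bulk. The 5 upper follicle markers, Lrig1 among them, summed to 6207 to 8919 CPM in GFP and to 5016 and 5676 CPM in bulk, with 0 called. Of the 5 sebaceous markers 3 were called lower, with sums of 200 to 293 CPM in GFP and 532 and 600 CPM in bulk. Only GFP 3 had abundant Xist, a transcript of the female inactive X chromosome, with 53714 counts, against 0 in GFP 1 and GFP 2 and 0 to 8 in the bulk libraries. Ddx3y, a gene of the Y chromosome, had 62 counts in GFP 3 and 1750 to 4462 in the other libraries. By these counts GFP 3 read as female and the other libraries, both bulk ones included, as male. Where GFP 3 departs from the other libraries below, or is left out, sex cannot be told apart from its other traits. Beyond this, nothing in the labels says that libraries of a group are separate animals, so p-values measure only the spread between these libraries.

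Promoter sequences are shown for members whose upstream bases hold a match to the NF-kB-type motif. The motif was searched since Cxcl1 and Ccl20 are textbook NF-kB target genes, and whether it bears on the members' differences was not tested. The motifs searched, on both strands, were GGGNN joined directly to TTTCC, and GGGNN joined directly to NTTCC, each of 10 bases. Each match to the first is also a match to the second. Of 32851 RefSeq promoter windows of 250 bases before a gene start, 1.41 percent held the first motif and 4.65 percent the second. RefSeq windows were found for 7 of the 10 members, and 3 of these members had a match. Ccl2, Cxcl16 and Il34 had no window and were not searched. Below, capitals mark the matches, and coordinates are on GRCm38.p6, an earlier build than that of the counts. The Cxcl1 window is chr5:90890995-90891244 (plus strand), the Ccl20 window chr1:83116516-83116765 (plus strand) and the Csf1 window chr3:107760470-107760719 (minus strand).
Cxcl1: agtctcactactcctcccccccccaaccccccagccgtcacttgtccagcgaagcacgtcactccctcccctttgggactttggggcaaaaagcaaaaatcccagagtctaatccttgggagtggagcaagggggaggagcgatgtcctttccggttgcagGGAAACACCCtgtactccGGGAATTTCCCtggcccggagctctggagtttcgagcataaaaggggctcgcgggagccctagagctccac
Ccl20: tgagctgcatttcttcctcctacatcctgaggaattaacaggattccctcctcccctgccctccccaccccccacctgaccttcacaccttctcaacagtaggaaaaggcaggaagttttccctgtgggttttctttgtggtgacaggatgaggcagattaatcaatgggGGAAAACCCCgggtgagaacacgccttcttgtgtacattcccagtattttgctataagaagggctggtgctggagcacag
Csf1: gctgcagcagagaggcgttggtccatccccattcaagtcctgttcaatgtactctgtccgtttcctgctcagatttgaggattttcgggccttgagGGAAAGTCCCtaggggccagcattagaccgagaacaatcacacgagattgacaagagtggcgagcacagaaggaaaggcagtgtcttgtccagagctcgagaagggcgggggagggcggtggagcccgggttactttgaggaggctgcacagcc
In Cxcl1, a minus-strand match lay 89 to 80 bases before the start, and a plus-strand match at 71 to 62 overlapped a minus-strand match at 70 to 61. Ccl20 had a minus-strand match at 80 to 71, and Csf1 had a minus-strand match, GGAAAGTCCC as printed, at 154 to 145. A match is a description of letters and was not tested as a binding site.

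The question was how Lrig1 positive sorted cells compare with the bulk population, and differences are given as log2 fold changes, GFP over bulk. Of the chemokine genes, 6, namely Ccl2, Ccl20, Ccl27a, Cxcl1, Cxcl14 and Cx3cl1, lay higher in each of the 3 GFP libraries than in both bulk libraries. Such separation upward was seen in 14.6 percent of all tested genes. The fitted differences of these 6 genes ran from 1.32-fold for Cx3cl1 to 2.31-fold for Cxcl1. None of the 10 members passed the test of edgeR over all genes (adjusted p under 0.05, Benjamini-Hochberg), in which 0.145 percent of genes were called higher and 5.14 percent lower. At an unadjusted p under 0.05, 5 members were higher and 0 were lower, against 4.28 percent of genes higher and 11.6 percent lower. The DESeq2 Wald test called 5 members higher, against 1.01 percent of genes, and limma-voom called 0, against 0.199 percent. The 5 were Cxcl14, Cxcl1, Ccl20, Ccl27a and Ccl2, with Ccl27a and Ccl2 near the threshold (DESeq2 adjusted p = 0.0446 and 0.0498).

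With the title number as a block in the fit (the replicate block), 8 members were called higher, 0 lower and 2 not at all, against 16.4 percent of tested genes called higher and 19.7 percent lower. Removing from each library its trend of counts on transcript length and GC content, in addition to the block, gave 8 higher members, against 15.8 percent of genes. The fits with the block rest on 2 pairs and 1 residual degree of freedom, and GFP 3 adds nothing to them. With the block alone edgeR set its prior degrees of freedom to infinity. The standard errors of that fit thus follow a trend over all genes and not a gene's own spread. The fit with the block alone called 36.0 percent of tested genes. Of the 10 members, 9 were higher in GFP within both title numbers, as were 38.5 percent of tested genes. The summed level of the 10 was 1269 to 1730 CPM in GFP and 993 to 1037 CPM in bulk. Cxcl14 and Ccl27a together made up the larger part of this sum in every library. It therefore does not describe the other members, and 4 members overlapped between the groups. In RNA from many cells together, fewer cells of a type and less RNA per cell cannot be told apart. The sums of the basal and upper follicle markers, given above, were also higher in all GFP libraries, and those of the suprabasal, hair, sebaceous, melanocyte, myeloid and T cell markers were lower. The part of these shifts in the members' differences was not tested.

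**Figure D1:**
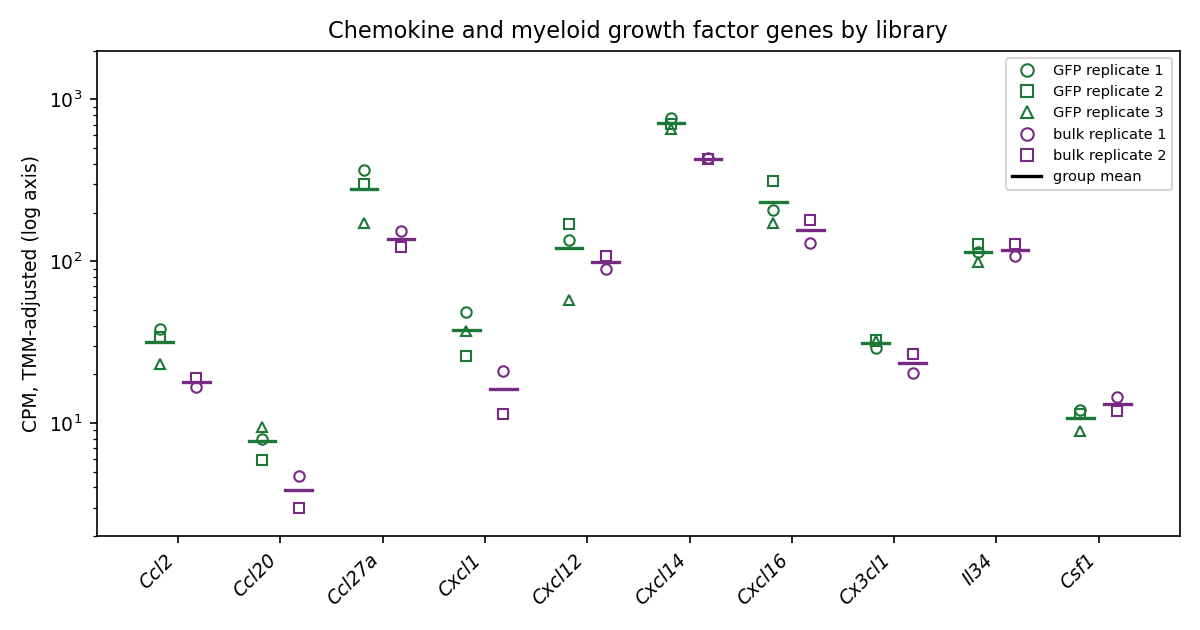
CPM (TMM-adjusted, log axis) of the 10 genes in each library, GFP in green left of bulk in purple, with marker shape for the replicate and a line for the group mean. All GFP points lie above both bulk points for Ccl2, Ccl20, Ccl27a, Cxcl1, Cxcl14 and Cx3cl1, while Cxcl12, Cxcl16, Il34 and Csf1 overlap.

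Among the CC chemokines, Ccl27a (ENSMUSG00000073888.14), a keratinocyte chemokine that draws skin-homing T cells through Ccr10, was at 366, 301 and 171 CPM in GFP 1, 2 and 3 and at 154 and 122 CPM in bulk 1 and 2. GFP 3 stood well below the other sorted libraries and close to bulk 1. The difference was 1.02 ± 0.33 (SE), with a 95% interval of 0.26 to 1.78 (edgeR adjusted p = 0.162). It was called without GFP 3 (1.27, edgeR adjusted p = 0.0155). Under the replicate block it was also called (1.28 ± 0.15, edgeR adjusted p = 1.24e-16). Within title numbers the differences were 1.25 and 1.30. Ccl27a overlaps Il11ra1, an interleukin 11 receptor gene on the opposite strand, and strandedness of the counts is not stated, so reads in the shared stretch cannot be told apart. Il11ra1 was at 136, 96.9 and 67.3 CPM in GFP and 61.3 and 60.3 CPM in bulk, with the same order of the GFP libraries. A near copy of the gene, Ccl27b, had 0 to 2 counts per library, and the sources used here do not say how shared reads were assigned.

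Ccl2 (ENSMUSG00000035385.6), which recruits monocytes through Ccr2, was at 38.3, 34.2 and 23.1 CPM in GFP and 16.7 and 19.0 CPM in bulk. Here too GFP 3 was the lowest sorted library. Its difference was 0.83 ± 0.25 (95% interval 0.25 to 1.42, edgeR adjusted p = 0.136). Leaving out GFP 3 gave a call (1.01, edgeR adjusted p = 0.0229), as did the replicate block (1.02 ± 0.15, edgeR adjusted p = 8.83e-10). Ccl2 is also made by fibroblasts and myeloid cells. The 7 fibroblast markers, 2 of them called lower, summed to 194, 61.0 and 55.5 CPM in GFP and 216 and 177 CPM in bulk, none of them at 0 in any library. Col6a1 alone ran the other way, at 25.8, 24.9 and 45.9 CPM in GFP and 19.9 and 23.9 CPM in bulk. It made up most of the GFP 3 sum. Of the 12 Langerhans and myeloid markers, 11 were called lower, and Lyz2 was at 0 in GFP 3. The part of these cells in the Ccl2 difference was not tested.

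Ccl20 (ENSMUSG00000026166.15), the ligand of Ccr6 on Langerhans cell precursors and some T cells, was among the rarest members. It had 7.98, 5.88 and 9.45 CPM in GFP and 4.70 and 2.99 CPM in bulk, with 281 to 882 counts per library. Unlike for Ccl27a and Ccl2, GFP 3 was the highest library. The difference of 1.02 ± 0.32 (95% interval 0.28 to 1.76) had an edgeR adjusted p of 0.150, and with the replicate block it was 0.87 ± 0.18 (edgeR adjusted p = 1.93e-05).

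Cxcl1 (ENSMUSG00000029380.12), a neutrophil attractant acting through Cxcr2, had the largest fitted difference of the 10. It was at 48.9, 26.1 and 37.1 CPM in GFP and 20.9 and 11.4 CPM in bulk. Libraries of title number 4145 were low in both groups, and within title numbers the differences were 1.22 and 1.19. Over all libraries the difference was 1.21 ± 0.35 (95% interval 0.41 to 2.01, edgeR adjusted p = 0.113), and under the block 1.21 ± 0.15 (edgeR adjusted p = 1.46e-13). Without bulk 2 it was 0.83 and without bulk 1 it was 1.71, neither called. By Euclidean distance between centred log2 CPM over the 5 libraries, Cxcl1 and Ccl20 were each other's nearest member (0.54), a description over few libraries.

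Cxcl14 (ENSMUSG00000021508.12), a chemokine made steadily by epithelia, was the most abundant member. GFP libraries had 771, 703 and 658 CPM and bulk libraries 435 and 427 CPM. Each sorted library lay above both bulk libraries by more than the range within either group. The mean was 711 ± 56.7 CPM in GFP and 431 ± 6.10 CPM in bulk (SD, n = 3 and 2). The difference of 0.72 ± 0.22 (95% interval 0.22 to 1.22) was not called by edgeR (adjusted p = 0.129), was called by DESeq2 (adjusted p = 0.00505) and was 0.77 ± 0.15 with the replicate block (edgeR adjusted p = 5.73e-06). Cxcl14 and Ccl2 were each other's nearest member (distance 0.44).

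Cxcl12 (ENSMUSG00000061353.12), which holds Cxcr4-bearing cells and is bound also by the scavenging receptor Ackr3, had the widest spread of log2 CPM among sorted libraries of the 10 members. It was at 136, 171 and 57.6 CPM in GFP and 89.4 and 108 CPM in bulk. GFP 3 was the lowest of all 5 libraries and GFP 2 the highest, so the groups overlap. The difference was 0.30 ± 0.40 (95% interval -0.63 to 1.23, edgeR adjusted p = 0.772). It was -0.031 without GFP 2 and 0.63 without GFP 3. With the replicate block, which does not draw on GFP 3, it was 0.63 ± 0.14 (edgeR adjusted p = 7.18e-05). Cxcl12 is also a fibroblast product. The fibroblast marker sums are given above, and their part in the spread of Cxcl12 was not tested.

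Cxcl16 and Cx3cl1 encode chemokines tethered to the cell surface, which proteases of the ADAM family cut free. Cxcl16 (ENSMUSG00000018920.12), the ligand of Cxcr6, was at 207, 315 and 172 CPM in GFP and 129 and 181 CPM in bulk. GFP 2 was far above the rest, and GFP 3 lay below bulk 2. The difference of 0.58 ± 0.30 (95% interval -0.11 to 1.27, edgeR adjusted p = 0.415) was 0.29 without GFP 2 and passed under the replicate block (0.74 ± 0.14, edgeR adjusted p = 3.26e-06). Cxcl16 overlaps Zmynd15 on the opposite strand, which had 458 to 1288 counts per library, far fewer than Cxcl16 with 7724 to 20878.

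Cx3cl1 (ENSMUSG00000031778.14), the ligand of Cx3cr1, was at 29.2, 32.4 and 32.1 CPM in GFP and 20.4 and 26.8 CPM in bulk. The sorted libraries were close to each other and the gap to bulk 2 was small. Its difference of 0.40 ± 0.20 (95% interval -0.06 to 0.87) had an edgeR adjusted p of 0.397, and of 0.0304 with the replicate block (0.39 ± 0.15).

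Neither growth factor gene separated the groups. Il34 (ENSMUSG00000031750.16) was at 113, 129 and 99.1 CPM in GFP and 108 and 127 CPM in bulk. All 5 libraries lay in one narrow range. The difference was -0.051 ± 0.20, with a 95% interval of -0.51 to 0.40 (edgeR adjusted p = 0.927), and 0.041 under the replicate block (edgeR adjusted p = 0.857). Csf1 (ENSMUSG00000014599.11) was at 12.0, 11.4 and 8.93 CPM in GFP and 14.4 and 11.9 CPM in bulk, with GFP 1 just above bulk 2. Its difference was -0.29 ± 0.23, with an interval of -0.82 to 0.24 (edgeR adjusted p = 0.606), and -0.16 under the replicate block (edgeR adjusted p = 0.463). These intervals do not show that the levels are alike. Whether the growth factors differ from the chemokines in their change was not tested.

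**Figure D2:**
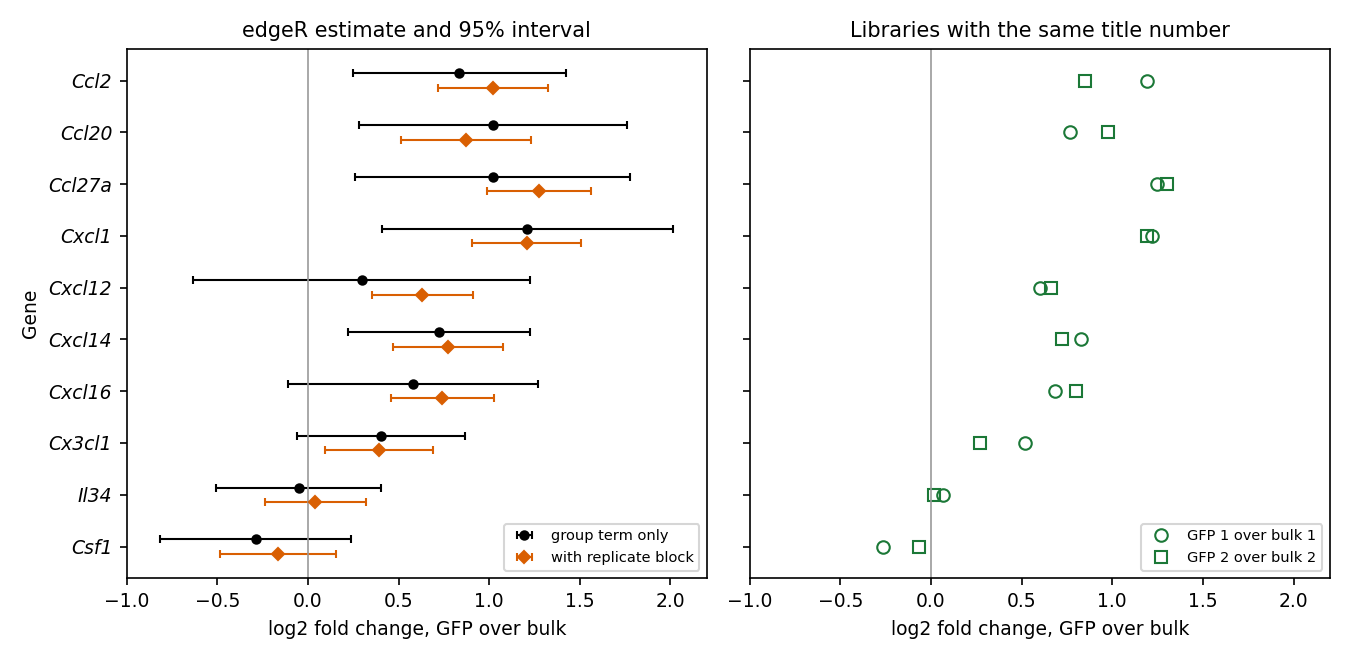
Left, log2 fold changes (GFP over bulk) of the 10 genes with 95% intervals, from edgeR with a group term only (black) and with the replicate block (orange); right, the difference within each shared title number. Intervals of the group fit for Ccl2, Ccl20, Ccl27a, Cxcl1 and Cxcl14 lie above 0 before adjustment, and both differences within title numbers are above 0 for each gene except Csf1.

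To compare levels between genes, CPM was divided by the length of the longest annotated transcript (CPM per kilobase, or RPKM). In GFP cells the order was Cxcl14 at 389 ± 31.0 RPKM (SD, n = 3), Ccl27a at 280 ± 99.4, Cxcl16 at 85.8 ± 27.5 and Il34 at 63.3 ± 8.21 RPKM. Then came Ccl2 at 29.1, Cxcl12 at 21.6, Cxcl1 at 20.0, Cx3cl1 at 9.43, Ccl20 at 5.48 and Csf1 at 2.58 RPKM. Cxcl14 and Ccl27a, Cxcl16 and Il34, Ccl2 and Cxcl12, and Cxcl12 and Cxcl1 were neighbours that differed by less than their summed SDs. In bulk cells the leading pair was the same, with Cxcl14 at 236 ± 3.34 and Ccl27a at 138 ± 22.8 RPKM (SD, n = 2). Il34 at 65.6 stood before Cxcl16 at 57.4 RPKM, Cxcl12 at 17.6 before Ccl2 at 16.3 RPKM, and Csf1 at 3.15 before Ccl20 at 2.71 RPKM, each pair differing by less than its summed SDs. Il34 thus exceeded Csf1, the other ligand of the same receptor, in both groups, with 63.3 against 2.58 RPKM in GFP and 65.6 against 3.15 RPKM in bulk.

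Of the signalling receptors for these ligands, those called had few counts in sorted cells. In the list of 23 chemokine receptors, 16 were tested, 4 were called lower and 0 higher. With the replicate block 10 were lower and 4 higher. Over all tested genes, the fit without the block called 5.14 percent lower and 0.145 percent higher. The fit with the block called 19.7 percent lower and 16.4 percent higher. The list median was -0.59, also with any gene at 0 in every GFP library set to its bound (a floor of 3 counts over the sorted group), against 0.05 for all tested genes. Cxcr6, the Cxcl16 receptor of T cells, was at 0.0887, 0.0754 and 0.129 CPM in GFP and 1.92 and 1.52 CPM in bulk, and fell by 4.10 ± 0.44 on the log2 scale (edgeR adjusted p = 0.00148). Ccr2 had 2, 0 and 0 counts in GFP and 23 and 70 in bulk (edgeR adjusted p = 0.0108, and 0.116 without bulk 2). Ccr8, a receptor of skin T cells, had 0, 0 and 1 counts in GFP and 18 and 90 in bulk (edgeR adjusted p = 0.00579, and 0.0861 without bulk 2). Ccr6, the receptor of Ccl20, had 0 counts in all GFP libraries and 3 and 19 in bulk, and did not pass the filter.

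Cx3cr1 was at 0.874, 0.332 and 0.214 CPM in GFP and 1.96 and 1.74 CPM in bulk (edgeR adjusted p = 0.118, 9.58e-07 under the replicate block, and 0.0202 without GFP 1). Cxcr4 was at 3.14, 2.32 and 3.05 CPM in GFP and 3.90 and 3.36 CPM in bulk, a small gap that was not called (edgeR adjusted p = 0.615). Ccr10 and Cxcr2 had few counts in both groups, with 26 to 93 and 6 to 37 counts in GFP and 36 to 141 and 26 counts in bulk. Neither was called in the main fit (edgeR adjusted p = 0.724 and 0.750). Under the replicate block the edgeR adjusted p was 0.0360 for Ccr10 and 0.0518 for Cxcr2. With the trend also removed it was 0.0210 and 0.0480. Csf1r was at 0.684, 0.452 and 0.439 CPM in GFP and 9.31 and 8.73 CPM in bulk. It fell by 4.10 ± 0.31 on the log2 scale (edgeR adjusted p = 3.84e-04), the call holding in each alternative fit that was run, while its ligands Il34 and Csf1 were not called in any. Macrophages and Langerhans cells express Csf1r, and the myeloid marker sums given above moved the same way. What share of the receptor differences they carry was not tested.

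Atypical receptors bind chemokines without the usual signal and take them up, and 3 of them were well detected. Ackr4, which scavenges CC chemokines of the Ccr7 and Ccr9 systems, was at 145, 104 and 114 CPM in GFP and 82.1 and 54.9 CPM in bulk. Every GFP library was above both bulk libraries. The difference was 0.82 ± 0.25 (edgeR adjusted p = 0.132, and 2.12e-08 under the replicate block). Ackr3, which takes up Cxcl12, was at 118, 63.8 and 61.7 CPM in GFP and 65.2 and 31.4 CPM in bulk, with the groups overlapping (edgeR adjusted p = 0.418, and 1.18e-09 under the replicate block). Ackr2, a scavenger of inflammatory CC chemokines such as Ccl2, was at 9.41, 6.64 and 12.4 CPM in GFP and 6.42 and 3.92 CPM in bulk (edgeR adjusted p = 0.265, and 0.00106 under the replicate block).

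**Figure D3:**
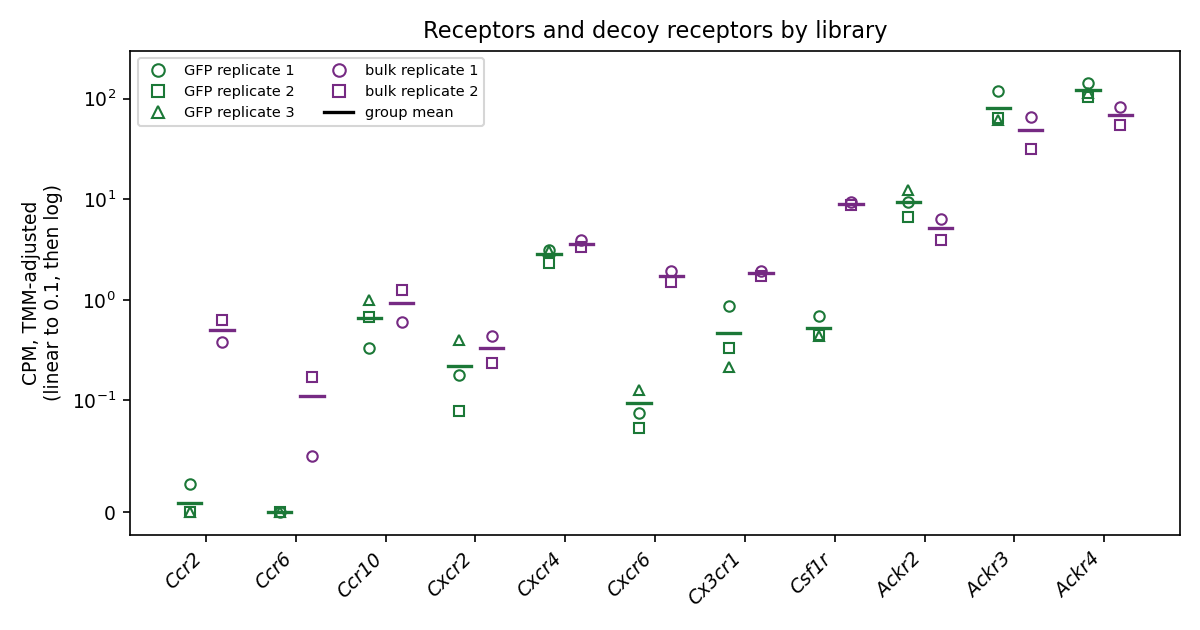
CPM (TMM-adjusted; axis linear up to 0.1, then log) of 8 receptors of the 10 ligands and of the atypical receptors Ackr2, Ackr3 and Ackr4 in each library, GFP in green left of bulk in purple, lines for group means. Ccr6 is at 0 in all GFP libraries, Csf1r and Cxcr6 are separated widely, and the 3 atypical receptors have higher means in GFP.

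Of 30 other chemokine ligand genes, 17 did not pass the filter, 3 were called lower and 0 higher, and the median of the 13 tested was 0.10. With the replicate block 5 were lower and 4 higher. The shares over all tested genes were 5.14 percent lower without the block, and 19.7 percent lower and 16.4 percent higher with it. Xcl1, a chemokine of T and natural killer cells, was at 1.42, 0.664 and 0.546 CPM in GFP and 11.7 and 8.18 CPM in bulk (-3.50 ± 0.44, edgeR adjusted p = 0.00311). Ccl6, a macrophage chemokine, had 1, 0 and 1 counts in GFP and 64 and 46 in bulk (edgeR adjusted p = 0.00411), and Ccl21a, a ligand of Ccr7, had 3, 2 and 0 counts in GFP and 97 and 176 in bulk (edgeR adjusted p = 0.00238). The 8 T cell markers were all called lower, as were 11 of the 12 Langerhans and myeloid markers. Of 6 endothelial markers 2 were called lower, with sums of 1.22 to 2.04 CPM in GFP and 4.82 and 5.10 CPM in bulk. The part of these cells in the falls of Xcl1, Ccl6 and Ccl21a was not tested. Cxcl10, an interferon-induced ligand and the list member with the highest CPM, was at 59.1, 75.7 and 40.3 CPM in GFP and 37.7 and 43.3 CPM in bulk, with overlap (edgeR adjusted p = 0.416, and 5.82e-06 under the replicate block). Cxcl2, a neutrophil attractant that shares Cxcr2 with Cxcl1, was chosen after its values were seen. It ran opposite to Cxcl1, at 1.23, 0.528 and 0.911 CPM in GFP and 2.19 and 2.75 CPM in bulk (-1.47 ± 0.41, edgeR adjusted p = 0.102, and 3.99e-07 under the replicate block).

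Among 12 other myeloid growth factor and receptor genes, 11 were tested, 3 were called lower, Csf1r among them, and 0 higher, with a median of -0.94. With the replicate block 6 were lower and 1 higher. The shares over all tested genes were 5.14 percent lower without the block, and 19.7 percent lower and 16.4 percent higher with it. Csf2rb, the beta chain for GM-CSF and related cytokines, and its close relative Csf2rb2 had 0 to 3 counts per library in GFP and 24 to 75 in bulk (edgeR adjusted p = 0.00830 and 0.0159). Csf2rb2 was not called without bulk 1 or bulk 2 (0.0623 and 0.157). Close relatives such as these can share reads. Sdc1, a cell surface proteoglycan that can bind Il34, was at 1947, 1820 and 1267 CPM in GFP and 1389 and 1329 CPM in bulk, and was not called (edgeR adjusted p = 0.656, and 0.0160 under the replicate block).

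Of 5 protease genes, Mmp9, a secreted gelatinase that can trim chemokines, was called lower, at 0.342, 0.0754 and 0.311 CPM in GFP and 4.30 and 4.25 CPM in bulk (-4.11 ± 0.54, edgeR adjusted p = 0.00391). With the replicate block 4 were lower and 1 higher, against 19.7 percent of all tested genes lower and 16.4 percent higher. Without the block 5.14 percent of all tested genes were called lower. The list median was -0.28. The shedding proteases of Cxcl16 and Cx3cl1 did not separate the groups. Adam17 was at 45.7, 45.6 and 75.6 CPM in GFP and 69.6 and 65.6 CPM in bulk (edgeR adjusted p = 0.654, and 4.84e-04 under the replicate block, which leaves the high GFP 3 value unused). Adam10, named after its values were seen, was at 50.1, 47.3 and 68.2 CPM in GFP and 66.3 and 63.3 CPM in bulk (edgeR adjusted p = 0.656, and 0.0143 under the replicate block).

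Of 16 NF-kB pathway and feedback genes, all tested, edgeR called 0, and at an unadjusted p under 0.05 found 3 higher and 0 lower. Over all tested genes, 4.28 percent were higher and 11.6 percent lower at that unadjusted p. DESeq2 called 1 higher, against 1.01 percent of genes, and limma-voom 0. Their median was 0.42, against 0.65 for the 10 members and 0.05 for all tested genes. With the replicate block 10 were higher and 1 lower, against 16.4 percent of all tested genes higher and 19.7 percent lower. Zfp36, which destabilises cytokine messenger RNA and had the highest CPM of the list, was at 3268, 4560 and 5162 CPM in GFP and 3152 and 5713 CPM in bulk, with full overlap (edgeR adjusted p = 0.976). Icam1, a leukocyte adhesion receptor named after its values were seen, was at 190, 210 and 193 CPM in GFP and 111 and 133 CPM in bulk. Its difference of 0.70 ± 0.19 had an edgeR adjusted p of 0.0955, of 0.0304 once the length trend was removed and of 5.16e-06 with the replicate block.

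**Figure D4:**
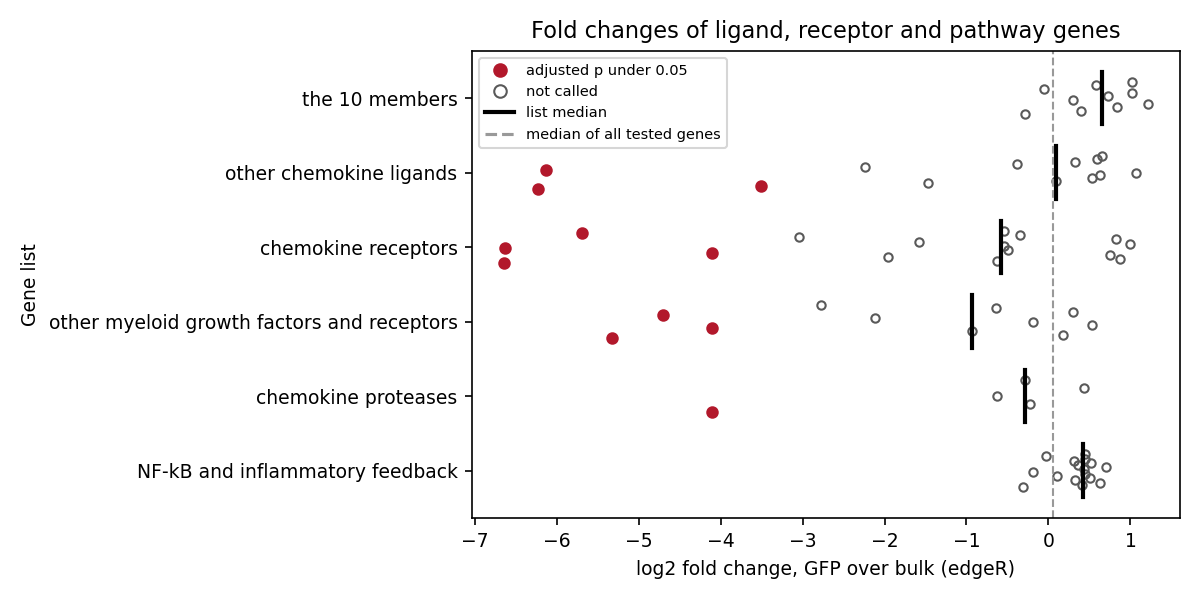
Log2 fold changes (GFP over bulk, edgeR) of the 10 genes and of the tested genes of each list, filled red where the adjusted p is under 0.05, with a bar for the list median and a dashed line for the median of all tested genes (0.05). The red points are all on the lower side, and values below -5 belong to genes with 0 to 3 counts per GFP library, whose fitted size depends on the prior count.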

How the data were processed

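Libraries were sequenced from total RNA of 3 GFP-sorted and 2 bulk samples. The values are raw whole-number counts per Ensembl gene ID, as deposited by the authors. STAR and the build GRCm39 were used, per the submitters' processing notes. The sources used here give no STAR version, counting tool, annotation release, strandedness or filter. Symbols came from GENCODE M21 by ID without version (52073 of 56691 matched). Counts were fitted with edgeR 4.0.16 in R 4.3.3: filterByExpr (minimum count 10, minimum total 15), TMM scaling, a group term and the two-sided quasi-likelihood test, with Benjamini-Hochberg adjustment over all 18583 tested genes. This left 3 residual degrees of freedom. Named were the 10 members, their receptors and, per list, up to 4 called genes and the most abundant. Members and lists were chosen with earlier results of these data known.

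Alternatives were other scalings and filters, DESeq2 1.42.0, limma-voom (limma 3.58.1), leaving out each library, a loess trend (span 0.3) on transcript length and GC as an offset, and the title number as a replicate block. Title numbers were read as animal numbers, which the labels do not state and which their genotype entries go against. Across genes, bulk 1 minus bulk 2 correlated with GFP 1 minus GFP 2 (Pearson r = 0.457 over genes, which are not independent). The counts carry no molecular identifiers, and floors cover counting error only. One receptor gene that was tested and counted is not reported here by name.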

Additional observations from a re-analysis of the deposited data

How the results depend on the processing

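Against 982 genes called by edgeR, 1918 were called with no filter on low counts, 1499 by DESeq2, 6692 with the replicate block and 5926 with the block and the length trend removed, and 480 to 1205 when each library was left out in turn. Of the 10 members, 0 were called in the edgeR fit, 4 with no filter, 5 by DESeq2, 8 with the replicate block and 8 with the block and the trend removed. All of these calls were higher in GFP. Genes called higher were 27 of 18583 in the edgeR fit, 258 of 32815 with no filter and 188 of 18578 by DESeq2. With the replicate block they were 3040 of 18583, and with the trend also removed 2860 of 18107. Leaving out each GFP library gave 0 to 2 members, the 2 being Ccl2 and Ccl27a, higher without GFP replicate 3. In that fit 96 of 17834 genes were called higher. Of the listed pathway genes 11 were called, against 23 with no filter, 5 with a minimum of 1 CPM (fewer genes tested), 17 by DESeq2, 46 with the replicate block, 45 with the block and the trend removed, and 7 to 12 when each library was left out. Of 61 list genes tested, the 11 called were all lower, against 955 of 18583 genes. With no filter 4 of 83 were higher and 19 lower, against 258 and 1660 of 32815 genes. At 1 CPM 5 of 45 were lower and 0 higher, against 674 and 23 of 13161 genes. DESeq2 called 3 of 61 higher and 14 lower, against 188 and 1311 of 18578 genes. The block called 20 higher and 26 lower, against 3040 and 3652 genes. With the trend also removed 19 were higher and 26 lower, against 2860 and 3066 genes. Other scalings called 0 members. Scaling by library size alone put the median log2 change of all genes at -0.07, against 0.05 with TMM, and that of the members at 0.52, against 0.65. Signs turned for Il34 with the replicate block (0.041) and for Zfp36 with limma-voom (0.025) and with the trend removed (0.034). They also turned when a library was left out, which gave a range of -0.031 to 0.63 for Cxcl12, -0.16 to 0.059 for Il34, -0.92 to 0.14 for Ccr10 and -0.40 to 0.45 for Zfp36. None of these was called. Where a bulk library is left out, the lone bulk library is assumed to vary like the GFP group. The causes of these shifts were not tested. Ccr6, with 0 counts in GFP and 3 and 19 in bulk, had too few counts to pass the filter.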
